A study of Rattus norvegicus with 4 samples.

Results

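The 10 genes described here encode brakes on ERK signalling: the dual-specificity phosphatases Dusp1, Dusp4, Dusp5 and Dusp6, the Sprouty proteins Spry1, Spry2 and Spry4, and the Spred proteins Spred1, Spred2 and Spred3. They were chosen by gene symbol, as 10 of 54532 genes listed in the deposited count table. RNA-seq libraries were made from skin at the injection sites in the ears of 2 SD rats, taken at day 3. One ear of each rat received control virus (treatment AAV-control, genotype wt). The other received AAV-Fgf7 (genotype given as Fgf7 overexpression), a virus carrying the gene for fibroblast growth factor 7 (FGF7), so each group held 2 libraries, 1 from each rat. The labels and the design text differ on which side received which virus, and the groups here follow the treatment labels. The sources used here do not give the promoter that drives the transgene, the viral dose, or the age and sex of the rats.

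FGF7 is released by mesenchymal cells and binds a splice form of the receptor FGFR2 on epithelial cells such as keratinocytes. The receptor acts through Ras, Raf and MEK on the kinase ERK, and ERK in turn induces transcripts whose proteins damp the same cascade. Dusp proteins remove phosphate from ERK itself, Sprouty proteins act near the receptor and Ras, and Spred proteins bring the Ras inactivator neurofibromin to the membrane. Levels of these transcripts are therefore widely read as a record of recent FGF and ERK activity.

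Library totals ran from 1299136 to 1601321 counts, and the 10 genes together held 0.0250% to 0.0303% of a library. Levels are given as CPM, the counts of a gene relative to the library total after scaling by the TMM method, and each pair of values names rat 1 first and rat 2 second. Fgf7, read first as a check of the labels, stood at 71.4 and 73.2 CPM with control virus. With AAV-Fgf7 it stood at 321 and 989 CPM, so rat 2 held 3.09 times the level of rat 1. The rows of both deposited tables carry mouse gene identifiers although the animals were rats, and the sources used here do not say how reads came to be counted under them. The p-values measure the spread between these samples, which differ in animal and in piece of tissue. Among skin markers, all 10 basal keratinocyte genes had counts, whereas the terminal differentiation genes Ivl and Flg and the fibroblast genes Dcn and Lum had none in any library. A count of 0 under these models does not show that a transcript was absent. The tissue was bulk skin, so fewer cells of a type and less RNA per cell cannot be told apart.

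All 10 genes had counts in every library, and 9 passed the low-count filter. No feedback gene was called by the quasi-likelihood test of edgeR, which models the counts of all genes together (0 of 9 at an adjusted p under 0.05), where 0% of the 6370 tested genes were called. None of the 9 had an unadjusted p under 0.05 either, against 2.32% of all tested genes. DESeq2 and limma-voom also called 0 of the feedback genes, with 0 at an unadjusted p under 0.05. Fgf7 itself was not called by the main edgeR test, at a log2 fold change of 3.18 (SE 0.54, edgeR adjusted p = 0.9996). DESeq2 (adjusted p = 9.4e-09) and edgeR without the low-count filter (adjusted p = 0.00512) did call Fgf7. The main test thus left a 9.05-fold change uncalled, so its lack of calls does not show that the feedback genes were unchanged. Log2 fold changes of AAV-Fgf7 over control, where 1 is a doubling, were above 0 for 5 genes and below 0 for 4, with a median of 0.02 beside -0.02 over all tested genes. For 6 of the 9 the fold change lay within 0.2 of 0 on the log2 scale, as it did for 46.2% of all tested genes. The values of largest size were those of Dusp4 (0.95), Spry4 (-0.90) and Dusp5 (-0.83). Both AAV-Fgf7 libraries lay above both controls for 2 genes, Dusp4 and Dusp6, as they did for 14.8% of tested genes. They lay below both controls for 3 genes, Dusp1, Dusp5 and Spred1, as they did for 13.3% of tested genes.

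**Figure D1:**
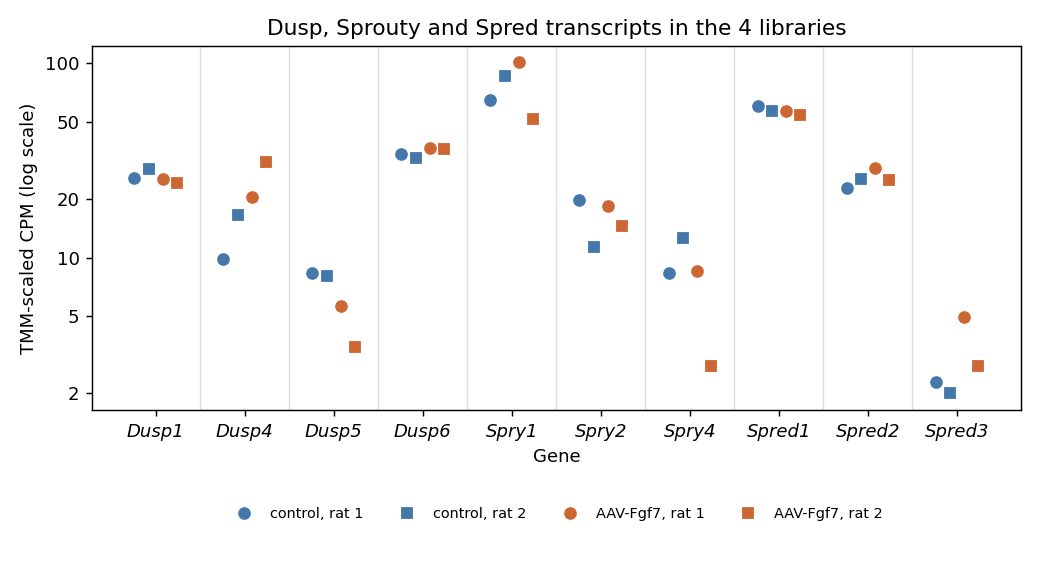
TMM-scaled CPM (log axis) of each of the 10 genes in the 4 libraries, with control ears in blue, AAV-Fgf7 ears in orange, rat 1 as circles and rat 2 as squares. Dusp6, Spred1, Dusp1 and Spred2 hold nearly level across the libraries, Dusp4 is higher in both AAV-Fgf7 ears than in either control ear, and Spry1 is highest in the AAV-Fgf7 ear of rat 1 and lowest in that of rat 2.

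Dusp4 encodes a nuclear phosphatase that is induced by ERK and acts on ERK and other MAP kinases. It is listed as ENSMUSG00000031530 at chr8:34807297-34819894, plus strand, in mouse coordinates of a build that the tables do not name. Raw counts of Dusp4 were 13 and 25 with control virus, and 29 and 45 with AAV-Fgf7. On the CPM scale the levels were 9.87 and 16.6 with control virus and 20.5 and 31.2 with AAV-Fgf7. The groups did not overlap, with 16.6 CPM as the higher control and 20.5 CPM as the lower AAV-Fgf7 value. Group means were 13.3 ± 4.79 and 25.8 ± 7.55 CPM (SD, n = 2), a log2 fold change of 0.95 (standard error, SE, 0.45, with a 95% interval of -0.15 to 2.05). The edgeR test gave an unadjusted p of 0.0784, rank 265 of 6370, and an adjusted p of 0.9996. Within rats the AAV-Fgf7 ear held 2.07 times the control level in rat 1 (counting interval 1.05 to 4.35) and 1.87 times in rat 2 (1.12 to 3.19). These intervals are exact for the ratio of 2 counts, they cover counting error only, and they compare ears rather than viruses. The 2 control ears differed by a ratio of 1.69 (0.830 to 3.59), so the spread between controls was close in size to the difference between groups. Leaving out the AAV-Fgf7 ear of rat 2 gave Dusp4 a log2 fold change of 0.62, and leaving out the control of rat 1 gave 0.63. Without the control of rat 2 it was 1.38.

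Dusp4 may be set against Dusp6 within a library, which needs no scaling between libraries. On the authors' FPKM scale, which divides counts by gene length and library size, the ratio of Dusp4 to Dusp6 was 0.330 and 0.583 with control virus and 0.637 and 0.989 with AAV-Fgf7. The ratio of Dusp4 to Dusp5 was 1.07 and 1.88 with control virus and 3.27 and 8.12 with AAV-Fgf7. Both ratios were higher in the AAV-Fgf7 ears than in either control ear, and neither was tested. They restate levels of the same genes, since Dusp4 lay above both controls, Dusp5 lay below both and Dusp6 stayed nearly level. They are thus no separate evidence on Dusp4. The ratio of 8.12 rests on 45 counts of Dusp4 and 5 of Dusp5. The 10 basal keratinocyte markers summed to 1298 and 1247 CPM with control virus and 1990 and 3742 CPM with AAV-Fgf7, above both controls as Dusp4 was, although the controls stood in the other order. Of the 9 tested, 4 lay above both controls (Krt14, Krt5, Sfn and Trp63), where 14.8% of all tested genes did, and 5 overlapped them, with Lamb3 at a log2 fold change of -0.13 and Dst at -0.01. The suprabasal keratinocyte markers, 6 of 10 with a count and Ivl, Flg, Sbsn and Dsc1 at 0, summed to 1010 and 643 CPM with control virus and 941 and 2741 CPM with AAV-Fgf7. Most of that sum was Krt10, at 909 and 582 CPM with control virus and 852 and 2569 CPM with AAV-Fgf7. In rat 1 Krt10 and Krt2 were lower in the AAV-Fgf7 ear than in the control ear. Serpinb5 and Dsg1a were higher there, as Dusp4 was, and Krt1 and Lor had at most 1 count in any library. The part of keratinocyte content in the Dusp4 values was not tested.

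Dusp6 encodes a cytoplasmic phosphatase specific for ERK and is among the transcripts most often used to read FGF activity. The raw counts of Dusp6 were 45 and 49 with control virus and 52 and 52 with AAV-Fgf7. CPM levels were 34.2 and 32.6 against 36.7 and 36.0, a narrow range in which both AAV-Fgf7 ears stood just above both controls. The log2 fold change was 0.12 (SE 0.29, 95% interval -0.59 to 0.84, edgeR adjusted p = 0.9996). Between ears the ratio was 1.07 (counting interval 0.707 to 1.64) in rat 1 and 1.10 (0.733 to 1.67) in rat 2. The edgeR interval of the fitted change therefore ended below a doubling, while it held changes of up to 1.79-fold. DESeq2, run on all 12902 genes with a count, gave a larger SE of 0.54, and edgeR without the low-count filter gave 0.36. That bound thus depends on the fit, and the parts of method and filter were not separated. By the ratio of its highest to its lowest library, Dusp6 was the 174th most even of the 6370 tested genes. Counting error was wider than that range, with an exact Poisson interval of 32.8 to 60.2 for the 45 counts alone. Fgf7 itself differed 13.9-fold between its extreme libraries.

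Dusp5 encodes a nuclear phosphatase specific for ERK, and it had few counts. Raw counts of Dusp5 were 11 and 12 with control virus and 8 and 5 with AAV-Fgf7. The levels were 8.35 and 7.99 CPM in controls and 5.65 and 3.46 CPM with AAV-Fgf7, so both AAV-Fgf7 values were lower. Its log2 fold change was -0.83 (SE 0.58, 95% interval -2.24 to 0.58, edgeR adjusted p = 0.9996). Counting error alone spanned a wide range, with ratios between the ears of 0.676 (0.236 to 1.85) in rat 1 and 0.433 (0.120 to 1.32) in rat 2. A difference between the groups was not detected for Dusp5 with these counts and 2 libraries per group.

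Dusp1 encodes a nuclear phosphatase of ERK, p38 and JNK, and it is an immediate early gene that tissue stress also induces. Dusp1 had 34 and 43 counts with control virus and 36 and 35 with AAV-Fgf7. As CPM it stood at 25.8 and 28.6 in controls and 25.4 and 24.2 with AAV-Fgf7, with both AAV-Fgf7 values slightly below both controls. The log2 fold change was -0.13 (SE 0.32, 95% interval -0.93 to 0.66, edgeR adjusted p = 0.9996). Some immediate early genes were uneven between the libraries. Fosb had 20 and 468 counts with control virus and 20 and 36 with AAV-Fgf7, and Egr1, a zinc finger factor induced by ERK, had 136 and 717 against 187 and 273. Both were high in the control ear of rat 2, where Dusp1 stood at 1.11 times (0.691 to 1.79) and Dusp5 at 0.956 times (0.386 to 2.39) the other control ear. The rest of the immediate early list was mixed. Jun, Klf4, Btg2 and Nr4a1 were also highest in that ear, whereas Klf6, Jund and Dnajb1 were lowest there. Fos stood at 69.9 and 66.6 CPM with control virus and 43.8 and 47.8 CPM with AAV-Fgf7.

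Immediate early genes are known to be induced through the factor CREB, which binds TGACGTCA, and through serum response factor, which binds the CArG box. The windows upstream of Dusp1 and Dusp5 are shown because they carry these letters. RefSeq windows of assembly GRCr8 matched 9 of the 10 genes by symbol, all but Dusp4, and each was read over the 250 bases before the annotated start, on both strands. The capitals mark TGACGT, which lies within TGACGTCA and reads ACGTCA on the other strand, and in Dusp5 also the CArG box.

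Dusp1, chr10:17184603-17184852, plus strand: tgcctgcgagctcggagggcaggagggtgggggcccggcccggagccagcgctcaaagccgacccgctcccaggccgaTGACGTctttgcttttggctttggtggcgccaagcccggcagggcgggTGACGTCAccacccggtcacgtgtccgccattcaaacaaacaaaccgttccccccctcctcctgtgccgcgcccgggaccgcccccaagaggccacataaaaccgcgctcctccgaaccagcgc

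Dusp5, chr1:262543524-262543773, plus strand: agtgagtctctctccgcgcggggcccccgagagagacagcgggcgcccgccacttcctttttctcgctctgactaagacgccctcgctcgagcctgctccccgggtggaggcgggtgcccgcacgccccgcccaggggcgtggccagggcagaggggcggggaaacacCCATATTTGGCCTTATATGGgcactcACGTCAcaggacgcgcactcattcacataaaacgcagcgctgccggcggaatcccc

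TGACGTCA occurred in the window of Dusp1 alone among the 9 genes, starting 124 bases before the gene, and in 1.59% of all 33469 windows of this length. The shorter TGACGT occurred upstream of Dusp1, Dusp5 and Spred2, and in 6.95% of all windows. The CArG box occurred upstream of Dusp5 alone, as 2 adjoining matches that start 82 and 72 bases before the gene, and in 1.497% of all windows. The AP-1 letters TGANTCA occurred upstream of none of the 9, and in 6.34% of all windows. The ETS core CCGGAA, which Etv4 and related factors bind, occurred upstream of Spry2 and Spry4, and in 12.6% of all windows. Spry2 had windows at chr15:89109843-89110092 and chr15:89111927-89112176, and only the latter carried these letters. A match of letters is a description and not a bound site.

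Spry1 was the most abundant of the 10 genes, and the one gene whose counting intervals lay on opposite sides of 1 in the 2 rats. Sprouty-1 acts on receptor tyrosine kinase signalling upstream of ERK. The gene is listed as ENSMUSG00000037211 at chr3:37639947-37644598, plus strand, in the same mouse coordinates. Raw counts of Spry1 were 85 and 130 with control virus, and 143 and 75 with AAV-Fgf7. The levels of 64.5 and 86.5 CPM in controls lay between the AAV-Fgf7 levels of 101 CPM in rat 1 and 51.9 CPM in rat 2. The AAV-Fgf7 ear thus held 1.56 times the control level in rat 1 (counting interval 1.19 to 2.07) and 0.600 times in rat 2 (0.446 to 0.803). Libraries of 1 group differed too, by 1.34 times (1.01 to 1.78) between the controls and 1.94 times (1.46 to 2.61) between the AAV-Fgf7 ears. Means were 75.5 ± 15.5 and 76.5 ± 34.7 CPM (SD, n = 2), and the log2 fold change was 0.02 (SE 0.38, 95% interval -0.91 to 0.94, edgeR adjusted p = 0.9996). With rat as a replicate block it was -0.042. Opposite directions in the rats were also common elsewhere, at 59.2% of all tested genes and 4 of these 10.

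Of 8 fibroblast genes 6 had counts, and they summed to 37137 and 42173 CPM with control virus and 42985 and 29715 CPM with AAV-Fgf7. This sum ordered the libraries as Spry1 did, and so did the collagen genes Col1a1 and Col3a1, which made up most of it. The other 4 genes, Col1a2, Fn1, Fbn1 and Pdgfra, ordered them differently, with Col1a2 at 707 and 715 CPM against 547 and 338 CPM. The 14 of 15 skeletal muscle genes with counts summed to 15124 and 62623 CPM in controls and 33017 and 16021 CPM with AAV-Fgf7. The 12 of 14 hair follicle genes with counts summed to 60.0 and 1173 CPM against 3670 and 199 CPM. The part of these tissues in the Spry1 values was not tested.

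Spry4 had the widest spread of the tested feedback genes and few counts. Sprouty-4 is another FGF-induced inhibitor of the path to ERK. Counts of Spry4 were 11 and 19 with control virus and 12 and 4 with AAV-Fgf7. In CPM these were 8.35 and 12.6 against 8.47 and 2.77, so the groups overlapped and the AAV-Fgf7 ear of rat 2 stood lowest. Between ears the ratio was 1.01 (0.410 to 2.54) in rat 1 and 0.219 (0.0542 to 0.659) in rat 2. The log2 fold change of Spry4 was -0.90 (SE 0.68, 95% interval -2.55 to 0.75, edgeR adjusted p = 0.9996). Leaving out the AAV-Fgf7 ear of rat 2 gave -0.31 and leaving out that of rat 1 gave -1.89, so the value rested on the 4 counts of rat 2. The ear with the highest Fgf7 level was also the ear with the lowest Spry4 and Spry1 levels and the highest Dusp4 level, a description of a single library.

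Spry2, which encodes a Sprouty protein with a known part in limiting FGF signalling in epithelia, had 26 and 17 counts with control virus and 26 and 21 with AAV-Fgf7. Its CPM levels were 19.7 and 11.3 against 18.4 and 14.5, and both AAV-Fgf7 values lay between the controls. The log2 fold change was 0.09 (SE 0.45, 95% interval -1.01 to 1.19, edgeR adjusted p = 0.9996). As a fold that interval ran from 0.495 to 2.29, so it holds a doubling.

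**Figure D2:**
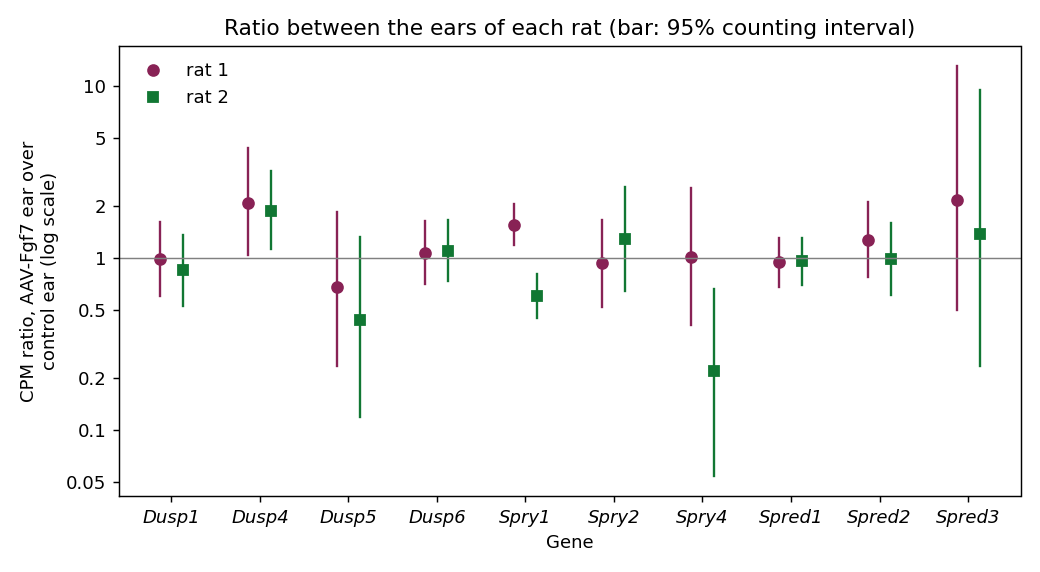
Ratio of CPM in the AAV-Fgf7 ear to CPM in the control ear (log axis) for each of the 10 genes, in rat 1 (purple circles) and rat 2 (green squares), with exact 95% intervals for counting error only. Dusp4 lies above 1 in both rats (2.07 and 1.87), Spry1 lies on opposite sides (1.56 and 0.600), and the intervals of Dusp5, Spry4 and Spred3 are wide.

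Spred1 and Spred2, the genes of the neurofibromin partners, were among the most even of the set. Spred1 had 79 and 85 counts with control virus and 80 and 78 with AAV-Fgf7. Spred1 levels of 60.0 and 56.6 CPM in controls and 56.5 and 54.0 CPM with AAV-Fgf7 spanned a ratio of 1.11, the 127th smallest of the 6370 tested genes. Here too counting error was wider, with an exact Poisson interval of 62.5 to 98.5 for the 79 counts alone. The log2 fold change of Spred1 was -0.08 (SE 0.26), and the 95% interval of -0.71 to 0.55 was the narrowest of the 9 genes. The groups adjoined without overlap, with 56.6 CPM as the lower control and 56.5 CPM as the higher AAV-Fgf7 value.

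Spred2 counts were 30 and 38 with control virus and 41 and 36 with AAV-Fgf7. At 22.8 and 25.3 CPM against 29.0 and 24.9 CPM the groups overlapped. The log2 fold change was 0.16 (SE 0.33, 95% interval -0.65 to 0.97, edgeR adjusted p = 0.9996). Spred3 did not pass the filter, with 3 and 3 counts with control virus and 7 and 4 with AAV-Fgf7. Exact Poisson intervals on those counts ran from 0.619 to 8.77 for 3 counts and from 2.81 to 14.4 for 7 counts, so they overlapped. A fit without the filter gave Spred3 a log2 fold change of 0.83 (SE 0.98).

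Taken over families rather than genes, the summed levels of the 4 Dusp genes were 78.2 and 85.9 CPM with control virus and 88.3 and 94.9 CPM with AAV-Fgf7. Those of the 3 Sprouty genes were 92.6 and 110.5 CPM against 128 and 69.2 CPM, an opposite order in the 2 rats that followed Spry1. Those of the 3 Spred genes were 85.0 and 83.9 CPM against 90.4 and 81.7 CPM. Sprouty sums thus varied most between libraries and Spred sums least.

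Levels of different genes were compared per gene length, with the authors' FPKM over all 4 libraries. Spry1 stood highest at 25.7 ± 7.36 FPKM (SD, n = 4 over both groups), with no overlap of its range with the next gene, Dusp6, at 10.9 ± 0.563. Dusp1 followed at 9.47 ± 0.680 FPKM, with a range that overlapped that of Dusp6. Spred1 at 8.21 ± 0.372 FPKM lay just under the range of Dusp1. The ranges of Spred1, Spry2 (7.52 ± 1.80), Dusp4 (6.99 ± 3.18) and Spred2 (5.41 ± 0.530) overlapped from neighbour to neighbour. Dusp5 at 2.53 ± 0.907 FPKM lay below all of these, and it overlapped with Spry4 at 1.72 ± 0.867, which overlapped with Spred3 at 0.473 ± 0.210. Counting under mouse gene models may differ between genes, so the order carries that limit.

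The make-up of the set differed between libraries mainly in Spry1 and Dusp4. Spry1 held 29.6% and 36.1% of the summed FPKM of the 10 genes with control virus, and 37.9% and 24.6% with AAV-Fgf7. The share of Dusp4 was 4.80% and 7.37% with control virus and 8.15% and 15.7% with AAV-Fgf7. Dusp6 held between 12.6% and 15.9% in all 4 libraries.

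**Figure D3:**
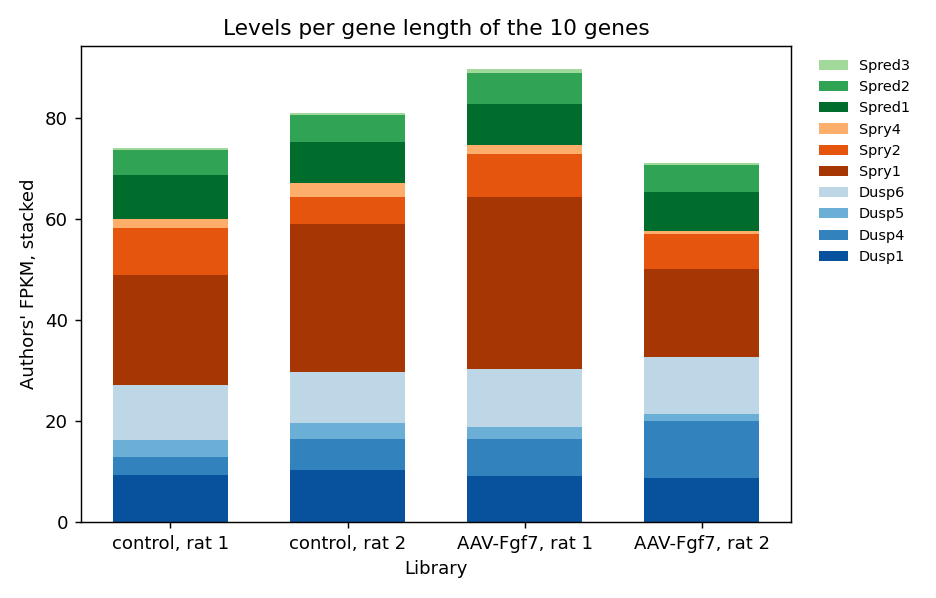
Authors' FPKM of the 10 genes stacked for each library, with Dusp genes in blue, Sprouty genes in orange and Spred genes in green. Spry1 is the largest block in every library (17.5 FPKM at its lowest), and the Dusp4 block is 3.55 and 5.96 FPKM with control virus and 7.31 and 11.2 FPKM with AAV-Fgf7.

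Other genes of the pathway were read from lists, each described by counts. Over all tested genes, 47.8% had a log2 fold change above 0. Of the 9 other MAP kinase phosphatase genes 3 were tested, 0 were called, and all 3 had log2 fold changes above 0 with a median of 0.42. Dusp7, whose protein is an ERK-specific phosphatase close to that of Dusp6, had 191 and 193 counts with control virus and 267 and 336 with AAV-Fgf7. Its levels of 145 and 128 CPM against 189 and 233 CPM did not overlap, with a log2 fold change of 0.62 (SE 0.21, edgeR unadjusted p = 0.0259, adjusted p = 0.9996). Dusp14 stood at 0.42 (SE 0.33) and Dusp8 at 0.02 (SE 0.33). Dusp7 had more counts than any of the 10 feedback genes in each library.

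Of the 17 ERK-induced transcripts outside the set, 13 were tested and 0 were called. Their values had a median of 0.22, with 10 above 0 and 3 below 0, where 47.8% of all tested genes lay above 0. Etv4, an ETS factor of FGF signalling, had 24 and 23 counts with control virus and 66 and 138 with AAV-Fgf7, a log2 fold change of 2.08 (SE 0.44, edgeR unadjusted p = 0.00301, adjusted p = 0.9996). Its ratio to Dusp6 on the FPKM scale was 0.538 and 0.474 with control virus and 1.28 and 2.68 with AAV-Fgf7. The log2 fold change of Etv5 was 0.58 (SE 0.74) and that of Egr1 was -0.86 (SE 0.65). The difference between Etv4 and the feedback genes was not tested.

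Upstream of these genes, the 15 tested members of the ERK cascade list (of 21) had a median log2 fold change of -0.04, with 7 above 0, 8 below 0 and 0 called. The Ras gene Hras stood at 0.35 (SE 0.22), the ribosomal S6 kinase gene Rps6ka1 at 0.52 (SE 0.87) and the MEK gene Map2k2 at -0.56 (SE 0.71). Of 9 receptor genes 7 were tested, with a median of -0.20, 3 above 0, 4 below 0 and 0 called. Among them were Erbb2 at 0.91 (SE 0.54), Egfr at 0.36 (SE 0.63) and the receptor-like gene Fgfrl1 at -0.52 (SE 0.50). Of 12 other brakes on receptor and Ras signalling 7 were tested, with a median of -0.08, 3 above 0, 4 below 0 and 0 called. The gene of the Ras GTPase-activating protein Dab2ip stood at 0.15 (SE 0.27), the ubiquitin ligase gene Cbl at 0.10 (SE 0.50) and the EGF receptor inhibitor gene Errfi1 at -0.95 (SE 0.69). Of 17 immediate early and handling genes 14 were tested, with 7 values on each side of 0, a median of -0.02 and 0 called. The chaperone genes Hspb1 and Hspa1b stood at 0.78 (SE 0.35) and 0.47 (SE 0.28), and Fosb at -3.06 (SE 1.23).

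**Figure D4:**
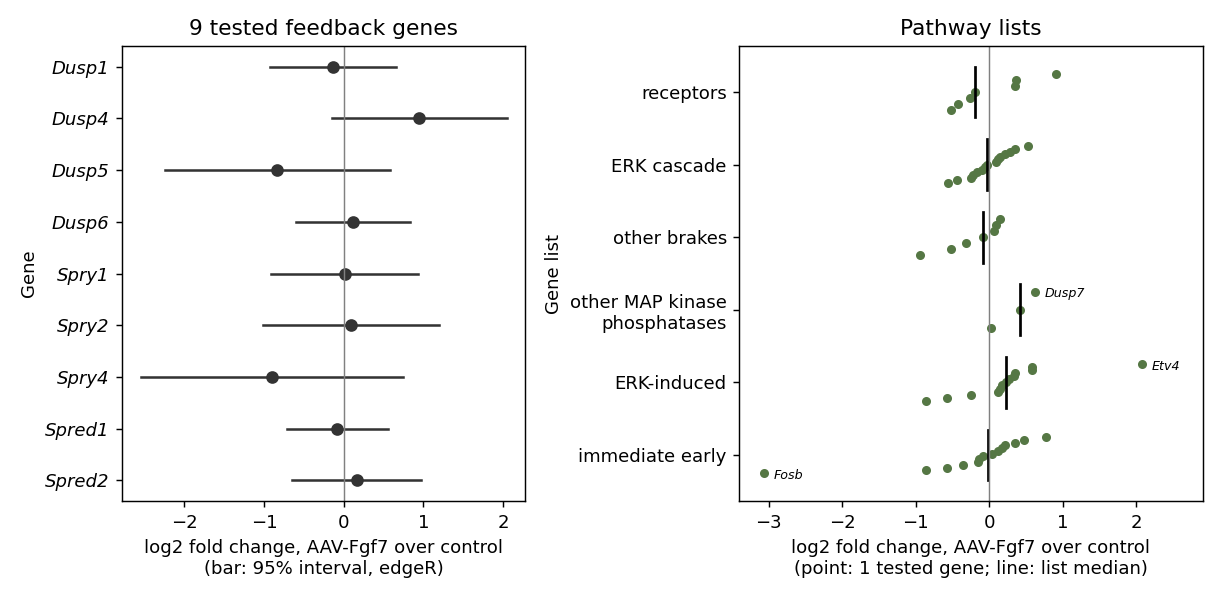
Left, log2 fold changes of AAV-Fgf7 over control for the 9 tested feedback genes, with 95% intervals from edgeR that are not adjusted for the number of genes. Right, the same quantity for each tested gene of 6 pathway lists (points) with list medians (lines). All 9 intervals on the left include 0, and Dusp4 is highest there at 0.95. On the right Etv4 is highest at 2.08 and Fosb is lowest at -3.06.

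Median SE was 0.38 for the 9 feedback genes and 0.36 for all tested genes. The 95% interval reached 0.63 to each side for Spred1 and 1.65 for Spry4, the narrowest and the widest on the log2 scale. The upper end of the edgeR interval lay below a doubling for 7 genes and above it for Dusp4 and Spry2. The lower end lay below -1 for Spry4 (-2.55), Dusp5 (-2.24) and Spry2 (-1.01), so larger falls lay within those 3 intervals. DESeq2, run without the low-count filter, gave a larger SE for each of the 9 genes, such as 0.54 for Dusp6 and 0.60 for Dusp1. The count of 7 therefore refers to the main edgeR intervals only. Between the control ears the feedback genes differed by a median of 0.14 on the log2 scale, beside 0.38 for all tested genes, and between the AAV-Fgf7 ears by 0.31, beside 0.31.

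How alike 2 genes were over the 4 libraries was measured by the root mean square distance of centred log2 CPM. Within the set, Dusp1 and Spred1 were nearest (0.0829), followed by Dusp6 with Spred1 (0.0977) and Dusp6 with Spred2 (0.0981), all of them even genes. Dusp4 and Spry4 were farthest apart (1.09). Of 5604 other genes with a mean of 10 CPM or more, Sipa1l3 was nearest to Dusp4 (0.04), with counts of 30 and 54 with control virus and 62 and 92 with AAV-Fgf7. There were 2 genes within 0.1 of Dusp4 and 3 within 0.1 of Spry4, the nearest of which was Adamts6 (0.03). Nova1 was nearest to Spry1 (0.05) and Mapk8ip3 to Dusp5 (0.04). The even profile of Dusp6 had 479 genes within 0.1, with Prcc nearest (0.01), and that of Spred1 had 457, with Nrbp1 nearest (0.01).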

How the data were processed

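Raw counts and FPKM values (counts over gene length and an effective library size) were computed and deposited by the authors, with 1 column per library in each table. The sources used here name neither aligner nor counter, and do not say whether poly(A) selection or rRNA depletion was used. The submitters' processing notes name the rat build Rnor_6.0 (rn6), and all identifiers are mouse Ensembl. Of the AAV-Fgf7 columns, the one numbered 2 was read as rat 2 from that number and the title, since the description repeats the name of the other column.

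Genes were filtered with filterByExpr (6370 of 12902 with a count, holding 98.9% of counts), scaled by TMM and tested with edgeR 4.0.16 (R 4.3.3, quasi-likelihood, two-sided), with Benjamini-Hochberg adjustment over all tested genes at 0.05. The test was checked on simulated data with an equal spread for all genes. That spread was smaller than in these libraries (common biological coefficient of variation 29.1%), so the check does not give the power of the test here. DESeq2 1.42.0, run on all 12902 genes with a count, and limma 3.58.1 were alternatives. The SE is the log2 fold change divided by the square root of F, and 95% intervals used the fit's degrees of freedom. CPM are TMM-scaled, and log2 CPM used a prior count of 2. With 2 against 2, an exact permutation test cannot give a two-sided p below 0.33. Ear ratios carry exact conditional intervals.

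The members and the lists were chosen with earlier results of these data known. Named genes were the 10 members, Fgf7, the 2 highest and the lowest of each pathway list, and the nearest profile of each member at a mean of 10 CPM or more. Individual marker genes, Dusp10 and the immediate early genes set beside Fosb and Egr1 were named after their values were seen. The 11 cell type marker lists are reported where their sums bear on a member or in the closing section. The titles place same-numbered libraries in 1 rat, which pairs them. Their deviations from group means correlated at r = -0.30 over 6370 genes.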

Additional observations from a re-analysis of the deposited data

How the results depend on the processing

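In all 13 alternatives, 0 of the feedback genes were called, and the lowest adjusted p was 0.763 (Spry4 without the control of rat 1). Signs held in every alternative for Dusp1, Dusp4, Dusp5, Dusp6, Spry4, Spred1 and Spred2. Dusp5 had no value with a mean count of at least 10. For Spry1, whose value was 0.02, the sign turned with limma-voom (-0.055), rat as a replicate block (-0.042) and FPKM with a pseudocount of 1 (-0.046) or 0.1 (-0.050), and leaving out 1 library gave -0.54 to 0.42. For Spry2 leaving out 1 library gave -0.26 to 0.54. The number of tested feedback genes above 0 was 5 of 9. It was 4 with limma-voom, the replicate block and both FPKM settings, 6 of 10 without the low-count filter and with DESeq2, and 3 to 5 when 1 library was left out, with 3 without the AAV-Fgf7 library of rat 1. Over all genes the count of calls was 0 with 148 at an unadjusted p under 0.05. It was 3 without the low-count filter, 3 with DESeq2, and 0 to 19 when 1 library was left out, with 19 without the control of rat 1. With the replicate block Dusp4 stood at 0.97 (edgeR adjusted p = 0.9997), and the block changed no call. Among these fits Dusp4 had an unadjusted p under 0.05 in 1, that without the control of rat 2 (edgeR adjusted p = 0.960), and no other feedback gene had one. Fits without 1 library hold a lone library in 1 group, which is assumed to vary like the other group. Counts of 4 to 19 for Spry4 and 5 to 12 for Dusp5 leave wide counting intervals.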

Other observations

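Several brakes on the pathway had no count in any library under these gene models: Il17rd, which encodes the FGF receptor antagonist Sef, Spry3, Dusp16, and Pebp1, the gene of a Raf kinase inhibitor that most tissues express. Dusp10, a phosphatase gene of p38 and JNK, had counts of 6 and 5 with control virus and 4 and 1 with AAV-Fgf7, and it was not tested.

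The remaining marker lists gave these sums for control virus (rat 1, then rat 2) and then for AAV-Fgf7. Cartilage genes (8 of 8) summed to 491 and 1789 CPM against 899.7 and 555 CPM. Smooth muscle and pericyte genes (6 of 7, with Tagln at 0) summed to 737 and 1789 CPM against 1039 and 1049 CPM. Most of that sum was Des, at 468 and 1426 CPM against 727 and 706 CPM. Endothelial genes (6 of 7, with Emcn at 0) summed to 109 and 134 CPM against 107 and 109 CPM. Macrophage genes (5 of 6, with Cd163 at 0) summed to 382 and 146 CPM against 205 and 278 CPM. Adipocyte genes (4 of 6, with Adipoq and Cidec at 0) summed to 57.7 and 216 CPM against 103 and 60.9 CPM. Schwann cell and melanocyte genes (5 of 7, with Pmel and Mlana at 0) summed to 1117 and 1139 CPM against 951 and 1339 CPM.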
